A study of Rattus norvegicus with 12 samples.

Results

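Gene expression was compared between vascular smooth muscle cells exposed to angiotensin II (Ang II) for 24 h and the same kind of cells exposed for 6 h. The 2 groups were taken from the sample titles and hold 3 arrays each, 6 of the 12 arrays of the series. All 14506 genes with a single-gene probe set entered the comparison. The cells came from the aorta of Sprague-Dawley rats and carried no stated genetic change. Culture was in M199 medium containing 10% fetal bovine serum. Serum was then withdrawn for 48 h before Ang II was added at 100 nM for 6 h or 24 h. The other arrays were of untreated cells (3 arrays) and of cells after 12 h of the same dose (3 arrays), and all groups shared the serum-free period. RNA was extracted with Trizol, and 100 ng per sample was labelled with biotin and hybridised to Affymetrix rat gene arrays that probe whole transcripts. The titles give the times as 6, 12 and 24 h, whereas the treatment protocol in the labels names 1, 3 or 24 h, and the titles were followed. The labels call the samples biological replicates and do not say whether animals or dishes differed between them, so the p-values rest on array-to-array spread that may be technical. No untreated culture taken at 24 h was analysed here, so the duration of Ang II and the further time without serum cannot be told apart.

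Ang II is the effector peptide of the renin-angiotensin system. In vascular smooth muscle it acts mainly on the AT1 receptor, which couples to Gq proteins, releases calcium from internal stores and starts the MAP kinase cascade. Within minutes to hours this signalling drives immediate-early transcription factors, contraction, protein synthesis and, over longer exposure, hypertrophy, matrix turnover and inflammation. The comparison of 24 h with 6 h asks which transcripts of the earlier response were still at the same level late in the exposure and which were higher or lower by then.

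The labelled cell type was checked against its defining markers. The 10 measured markers of vascular smooth muscle had a mean deposited log2 level of 12.59 to 12.62 on the 6 h arrays and 13.01 to 13.02 on the 24 h arrays. The 13 endothelial markers averaged 6.87 to 6.98 at 6 h and 6.91 to 6.94 at 24 h. The 16 leukocyte and macrophage markers averaged 5.94 to 6.03 and 6.00 to 6.11, and the 15 fibroblast markers 8.78 to 8.81 and 8.68 to 8.73. A log2 array value has no true 0, so these levels describe signal and do not show that a marker is absent.

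Between 6 h and 24 h, 2813 genes rose and 2875 fell, which is 19.4% and 19.8% of the 14506 genes tested (limma, Benjamini-Hochberg adjusted p below 0.05), or 39.2% in either direction. The 3 arrays of each time did not overlap in 48.9% of genes. Most of these differences were small. Of the genes that passed, 422 were at least 1.5-fold higher at 24 h (2.91%) and 520 at least 1.5-fold lower (3.58%). At 2-fold or more there were 107 higher (0.738%) and 154 lower (1.06%). The median difference over all genes was 0.047 on the log2 scale. In bulk RNA a lower level can come from fewer cells that express a gene or from less of its RNA per cell, and these cannot be told apart.

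Arrays of 1 group correlated at 0.9975 to 0.9983 over all genes, and arrays of 6 h with arrays of 24 h at 0.9868 to 0.9893. The spread of values within an array, as the interquartile range over genes, was 3.40 to 3.55 at 6 h and 3.26 to 3.39 at 24 h, so every 24 h array was narrower than every 6 h array. When genes were split into 4 equal classes by mean level, the class with the lowest level had few falls: 290 rose and 24 fell. After quantile normalization, which gives every array the same spread, these were 153 and 66. On the deposited values 1021 rose and 1167 fell in the class with the highest level. In the class next below it 843 rose and 1259 fell, and in the second lowest class 659 rose and 425 fell. Shares over all genes are therefore not matched in level to lists of high signal. The part of the array spread in single differences was not tested.

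**Figure D1:**
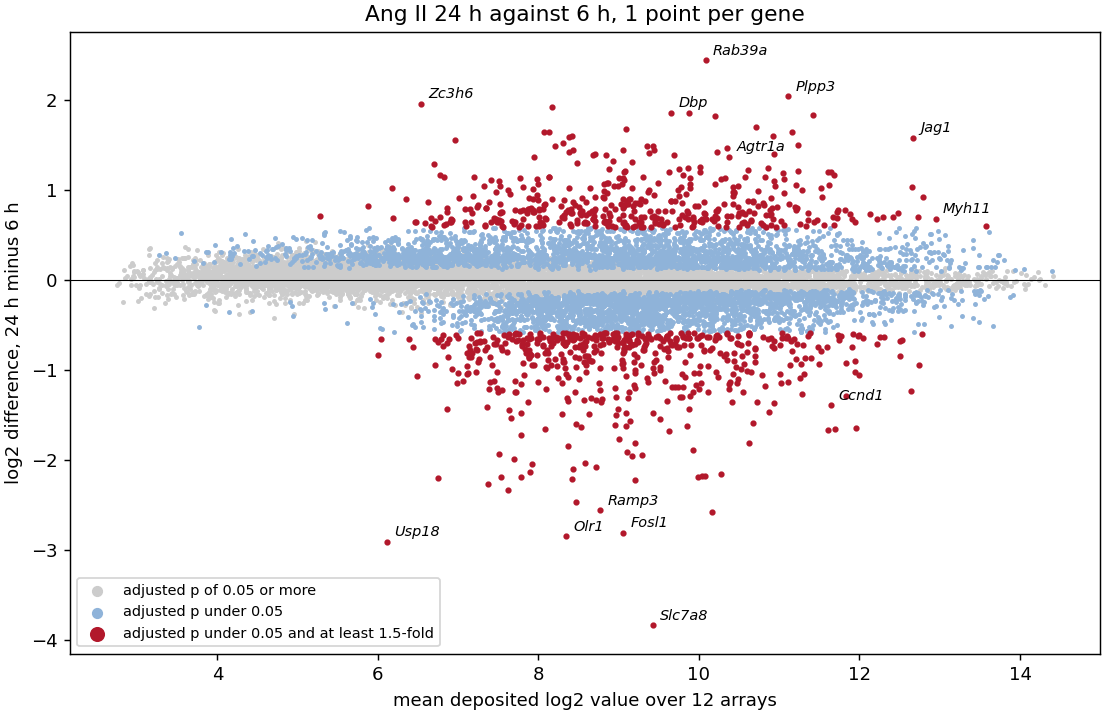
Each point is 1 of 14506 genes, with its mean deposited log2 value over the 12 arrays on the horizontal axis and its log2 difference, 24 h minus 6 h, on the vertical axis. Genes that passed and differed by at least 1.5-fold are coloured, 422 above the 0 line and 520 below it, and the lowest labelled gene is Slc7a8 at -3.84.

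The 12 h arrays show when the differences arose. These arrays share the 6 h and 24 h groups with the comparison, so their values are placed side by side and not counted as separate support. Of the 422 genes at least 1.5-fold higher at 24 h, 159 had a 12 h mean between the groups but nearer 6 h, 209 were nearer 24 h, 35 lay beyond the 24 h level and 19 below the 6 h level. Of the 520 lower genes, 196 were nearer 6 h, 226 nearer 24 h, 55 beyond the 24 h level and 43 beyond the 6 h level. The median gene had covered 56.1% of its rise, or 53.2% of its fall, by 12 h.

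The largest difference of all genes was in Slc7a8, which encodes the L-type amino acid transporter LAT2. Its log2 level was 11.36, 11.42 and 11.44 on the 6 h arrays and 7.64, 7.53 and 7.53 on the 24 h arrays. The groups lay far apart, with a 14.3-fold lower level at 24 h (log2 difference -3.84 ± 0.05 SE, limma adjusted p = 1.32e-12). At 12 h the mean was still 10.77, and untreated cells averaged 7.96, so most of the fall came after 12 h.

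Usp18, a protease that removes the interferon-induced modifier ISG15, was at 8.24, 7.91 and 8.22 at 6 h and at 5.10, 4.92 and 5.62 at 24 h. It fell 7.52-fold (adjusted p = 5.56e-07) with no overlap of arrays. Olr1, the oxidised LDL receptor LOX-1, was at 10.25, 10.02 and 10.02 at 6 h and at 7.40, 6.94 and 7.39 at 24 h. Its 24 h arrays were all far below the 6 h arrays, a 7.21-fold fall (adjusted p = 1.11e-08). Ramp3, a partner that sets the ligand choice of the calcitonin-like receptor, read 10.04, 10.14 and 10.29 at 6 h and 7.80, 7.35 and 7.63 at 24 h. For Ramp3 the 12 h mean of 9.89 did not differ from 6 h beyond the test's threshold (adjusted p = 0.115), and the gene fell between 12 h and 24 h (adjusted p = 1.42e-07).

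The other of the 15 largest falls ran from -2.19 to -2.81 on the log2 scale, and in all 15 the 3 arrays of 24 h lay below the 3 arrays of 6 h, as the naming rule required. They included Upp1, uridine phosphorylase, at -2.47, and Slco2a1, the prostaglandin transporter, at -2.19. Tfpi2, a Kunitz-type protease inhibitor, differed by -2.33, and Serpinb2, which inhibits urokinase, by -2.20. Trib1, a pseudokinase that steers ubiquitination, differed by -2.22, and the kinase Map3k6 by -2.21. Nabp1, a single-strand DNA-binding protein, was at -2.19. Dhrs9 and Aldh3a1, both enzymes of retinoid or aldehyde metabolism, were at -2.27 and -2.19, and C9h6orf141 was at -2.58. Serpinb2 and Aldh3a1 did not pass at 12 h against 6 h (adjusted p = 0.46 and 0.0644), whereas both fell from 12 h to 24 h (1.85e-05 and 8.67e-07).

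The largest rise was in Rab39a, a small GTPase of endosomal and phagosomal traffic. Its level was 8.92, 8.61 and 8.74 at 6 h and 11.22, 11.15 and 11.23 at 24 h. This is a 5.42-fold rise (log2 difference 2.44 ± 0.07 SE, adjusted p = 5.97e-10), and the 12 h mean of 10.30 lay between the groups. Plpp3, a phosphatase that inactivates extracellular lysophosphatidic acid, was at 9.98, 9.80 and 9.84 at 6 h and at 11.96, 11.91 and 11.88 at 24 h. All 24 h arrays were higher, a 4.12-fold rise, to near the untreated mean of 12.01. Lpar4, a receptor for lysophosphatidic acid, rose 3.11-fold over the same interval.

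Slc7a2, a carrier of arginine and other cationic amino acids, was at 10.33, 10.20 and 10.27 at 6 h and at 12.16, 12.04 and 12.10 at 24 h. It rose 3.55-fold while the neutral amino acid carrier Slc7a8 fell, and its 12 h mean was already 11.65. P2ry6, a receptor for the nucleotide UDP, rose 3.19-fold, and Otub2, a deubiquitinase, 3.12-fold. Popdc3, a membrane protein of muscle that binds cyclic AMP, rose 3.78-fold. Fbxl22, an F-box protein of striated muscle, rose 3.04-fold from 7.83, 7.71 and 7.69 to 9.35, 9.37 and 9.31, while untreated cells averaged 7.83. For Fbxl22 the 6 h arrays were therefore near the untreated level and the 24 h arrays above it. The other 5 of the 15 not described here or below, Zc3h6, Rai2, Lrrtm3, C1qtnf7 and Foxn3, had log2 differences of 1.60 to 1.96.

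**Figure D2:**
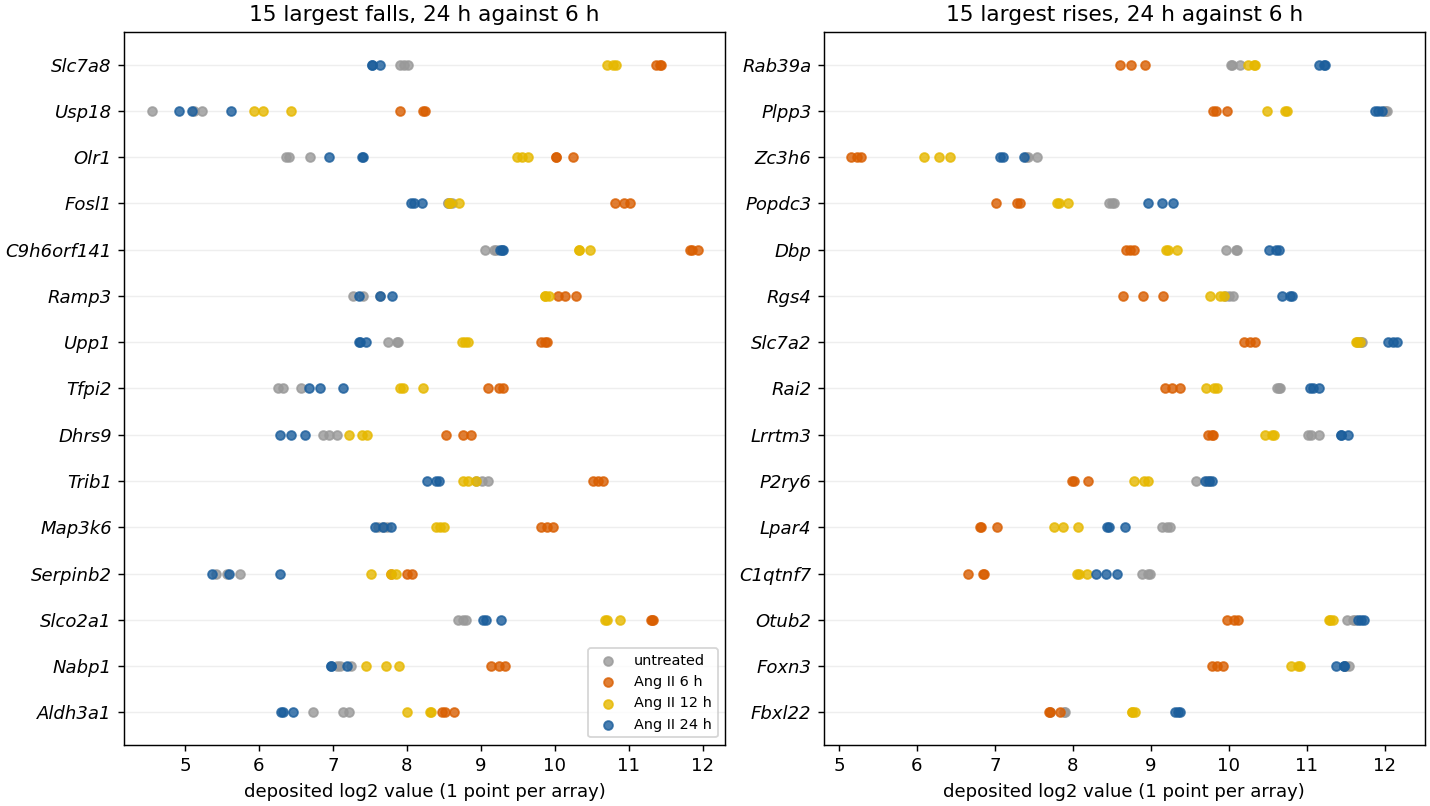
Deposited log2 values on each array for the 15 genes with the largest falls and the 15 with the largest rises from 6 h to 24 h, 1 point per array and 3 arrays per time. In every row the 3 arrays of 6 h and the 3 of 24 h are separate, from Slc7a8 (-3.84) to Rab39a (2.44).

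The receptor itself was among the genes that rose. Agtr1a, which encodes the main AT1 receptor of the rat vasculature, was at 9.29, 9.10 and 9.27 at 6 h and at 10.60, 10.51 and 10.65 at 24 h. Every 24 h array was above every 6 h array, a 2.58-fold rise (log2 difference 1.37 ± 0.06 SE, adjusted p = 8.17e-09). The 12 h mean was 9.93 and the untreated mean 11.79, so the 24 h level remained below that of untreated cells in these arrays. The groups overlapped for Agtr1b (6.32, 6.43 and 6.17 against 6.45, 6.30 and 6.51, adjusted p = 0.296) and for Agtr2, the AT2 receptor (5.81, 6.00 and 6.31 against 6.15, 5.73 and 5.92, adjusted p = 0.534). Agtr1a and Agtr1b are close paralogues, and cross-hybridisation between them was not tested.

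Of the 12 measured genes of the angiotensin system, 6 rose and 1 fell, with a median of 0.16 beside 0.047 over all genes. With each array centred on its median the split was 4 and 2, and without replicate 1 of 24 h 2 fell. Agtrap, which binds the AT1 receptor and promotes its internalisation, rose by 0.36. Lnpep, the aminopeptidase that binds angiotensin IV, rose by 0.44, and Mas1, the receptor for angiotensin 1-7, by 0.29. Mme, neprilysin, which degrades several vasoactive peptides, fell by 0.38. Ace and Agt, at 0.00 and 0.10, did not pass.

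Regulators of G protein signalling, which shorten the signal of receptors such as AT1, moved in both directions. Of 20 measured RGS proteins, receptor kinases and arrestins, 5 rose and 6 fell, with a median of 0.00. Rgs4 was at 9.15, 8.64 and 8.90 at 6 h and at 10.81, 10.68 and 10.78 at 24 h. All arrays of 24 h were higher, a 3.62-fold rise (adjusted p = 6.47e-08). Rgs16 went the other way, from 9.61, 9.57 and 9.68 to 8.28, 8.11 and 8.48, a 2.51-fold fall (adjusted p = 8.88e-08). Rgs2, which acts on Gq, fell by 0.56, and Rgs17 by 0.64. The receptor kinases Grk5 and Grk6 fell by 0.53 and 0.72.

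Feedback inhibitors of the MAP kinase cascade were mostly lower at 24 h. Of 17 measured members, 12 fell and 3 rose, against 19.8% and 19.4% of all genes, and the median was -0.49. Dusp5, a phosphatase that inactivates nuclear ERK, was at 10.36, 10.42 and 10.56 at 6 h and at 8.49, 8.58 and 8.41 at 24 h. Its groups were fully separate, a 3.87-fold fall (adjusted p = 2.69e-09). Dusp6, the cytoplasmic ERK phosphatase, was at 10.96, 10.89 and 11.07 at 6 h and 9.50, 9.30 and 9.25 at 24 h, a 3.07-fold fall. Spry2, a Sprouty inhibitor upstream of Raf, fell 2.78-fold, and Dusp10, which acts on JNK and p38, 3.05-fold.

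These falls lay mainly in the first interval. At 12 h against 6 h, 12 members were already lower and 2 higher, with a median of -0.52, while at 24 h against 12 h 4 were lower and 5 higher, with a median of 0.07. The shares of all genes lower in these comparisons were 13.9% and 13.5%, and higher 13.1% and 14%. The 12 h mean of Dusp6 was 9.38 and that of Dusp5 8.40, neither past the threshold against 24 h (adjusted p = 0.794 and 0.336). The members that rose were Dusp1, by 0.41, Dusp2, by 0.21, and Dusp8, by 0.54. Dusp1 differs from Dusp5 and Dusp6 in acting on p38 and JNK as well as ERK.

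Immediate-early transcription factors, which are made without new protein synthesis after a stimulus, were also mostly lower. Of 23 measured members 16 fell and 4 rose, with a median of -0.59. Fosl1, the AP-1 subunit Fra-1, was at 10.81, 10.94 and 11.02 at 6 h and at 8.09, 8.05 and 8.20 at 24 h. With no overlap it fell 7.02-fold (log2 difference -2.81 ± 0.06 SE, adjusted p = 8.24e-11), and most of this had happened by 12 h, when the mean was 8.62.

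Egr1, a zinc finger factor induced by ERK, was at 12.19, 12.25 and 12.34 at 6 h and at 10.57, 10.58 and 10.60 at 24 h, a 3.19-fold fall. Its 12 h mean of 10.02 was below the 24 h mean (adjusted p = 6.37e-05), and untreated cells averaged 13.55. Untreated cells were thus higher than both times for Egr1, as they were for Fos, at 10.30 beside 8.52, 8.39 and 8.43 at 6 h and 7.62, 7.57 and 7.57 at 24 h. The untreated means of Nr4a1 (11.94) and Klf4 (10.91) were also above all arrays of 6 h and 24 h. Nr4a3 fell 3.21-fold and Klf4, a repressor of contractile genes, 2.54-fold. Against 6 h, the 12 h arrays had 14 members lower and 2 higher, and from 12 h to 24 h 5 were lower and 6 higher.

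The members that rose were Fosl2, Nr4a2, Srf and Klf6. Fosl2, the AP-1 subunit Fra-2, was at 11.09, 11.04 and 11.08 at 6 h and 11.71, 11.65 and 11.65 at 24 h. All its 24 h arrays were higher, in the direction opposite to Fosl1. Srf, the factor that drives both immediate-early and contractile genes, rose by 0.26, and Nr4a2 by 0.36.

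Growth factor ligands divided evenly, with 14 of 31 higher and 13 lower and a median of 0.09. Among members above the median level of all genes, 9 rose and 10 fell and the median was -0.20. Of the EGF family, 4 ligands fell and 2 rose. Ereg, epiregulin, was at 10.75, 10.82 and 10.97 at 6 h and at 8.84, 8.62 and 8.53 at 24 h. All 24 h arrays were lower, a 4.55-fold fall (adjusted p = 3.5e-09). Hbegf, which is shed when AT1 transactivates the EGF receptor, fell by 1.01, Tgfa by 0.41 and Areg by 0.25, while Btc and Nrg1 rose by 0.27 and 0.74.

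Members of the FGF, PDGF and VEGF families went in opposite directions within each family. Fgf18 was at 7.96, 7.95 and 7.89 at 6 h and 9.38, 9.30 and 9.33 at 24 h, a 2.65-fold rise, and Fgf16 rose 2.77-fold. Fgf2 and Fgf7 fell by 0.72 and 0.95. Pdgfb and Pdgfa fell by 0.86 and 0.39, and Pdgfc and Pdgfd rose by 0.73 and 0.70. Pgf, placental growth factor, fell 2.46-fold and Vegfd by 0.84, whereas Vegfa rose by 0.61. Igf1, which supports smooth muscle growth and survival, was at 8.34, 8.13 and 8.33 at 6 h and at 7.09, 6.85 and 7.20 at 24 h. Its arrays did not overlap, and its 12 h mean of 8.15 was not past the threshold against 6 h (adjusted p = 0.423). Edn1, the precursor of the vasoconstrictor endothelin 1, fell by 0.38.

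Of 30 genes for cytokines, chemokines, adhesion molecules and NF-kappaB signalling, 12 fell and 3 rose, with a median of -0.07. Cxcl16, a membrane-bound chemokine and scavenger receptor, was at 11.67, 11.60 and 11.62 at 6 h and 9.90, 9.76 and 9.80 at 24 h. All its 24 h arrays were lower, a 3.51-fold fall (adjusted p = 4.53e-10). By the 12 h mean of 11.43 it had fallen by 0.20 (adjusted p = 0.00897), and it fell by a further 1.61 from 12 h to 24 h. The 2 adhesion molecules that bind leukocyte integrins moved apart. Icam1 fell from 11.07, 11.08 and 11.15 to 10.30, 10.27 and 10.21, a 1.80-fold difference. Vcam1 rose from 8.38, 8.14 and 8.53 to 9.43, 9.26 and 9.43, a 2.03-fold difference, with an untreated mean of 10.37. Lif, Cxcl12, Csf1, Ptgs2 and Ccl2 fell by 0.97, 0.62, 0.54, 0.53 and 0.44. Il6, Il1b and Tnf, at 0.18, 0.09 and 0.05, did not pass.

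Interferon-responsive genes did not follow Usp18. Of 26 measured, 5 fell (19.2%) and 3 rose (11.5%), beside 19.8% and 19.4% of all genes, with a median of 0.00. Isg15, Ifit1, Mx1 and Rsad2, typical type I interferon targets, had differences of 0.02, -0.01, 0.07 and 0.01 and did not pass. Gbp5, a guanylate-binding protein, was at 7.32, 7.23 and 7.30 at 6 h and 8.77, 8.75 and 8.88 at 24 h, a 2.87-fold rise with no overlap. Rig1, the cytosolic RNA sensor also known as Ddx58, rose by 0.66, and Ifih1, a related sensor, fell by 0.52.

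Genes of TGF-beta and BMP signalling were split, with 11 of 28 higher (39.3%) and 8 lower (28.6%) and a median of 0.08. The shares of all genes were 19.4% and 19.8%. Secreted antagonists went both ways, with Grem1 and Fst lower and Nog and Fstl3 higher by 0.43 and 0.34. Grem1, gremlin, which blocks BMPs, was at 12.07, 12.06 and 12.05 at 6 h and 10.75, 10.73 and 10.89 at 24 h, a 2.42-fold fall. Inhba, the activin A subunit, fell 1.80-fold, and Fst, follistatin, which binds activin, 1.82-fold. Id2, a BMP target, was at 10.51, 10.23 and 10.26 at 6 h and 11.47, 11.45 and 11.42 at 24 h, a 2.17-fold rise. Bmpr1a, a BMP receptor, rose by 0.74, Tgfb2 rose by 0.51, and Tgfb1 fell by 0.42.

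In the Wnt pathway 12 of 25 genes rose and 3 fell, with a median of 0.16. Without the array with the narrowest spread in each group the count was 8 and 3. Wnt ligands act through Frizzled receptors with the co-receptors Lrp5 and Lrp6. Fzd1 was at 8.87, 8.80 and 8.93 at 6 h and at 10.32, 10.22 and 10.22 at 24 h. All 24 h arrays were higher, a 2.61-fold rise (adjusted p = 8.8e-09). Fzd8 rose 2.19-fold, Fzd2 by 0.92 and Fzd4 by 0.53, whereas Fzd5 and Fzd6, at -0.02 and -0.04, did not pass. Rspo3, which strengthens Wnt signalling, rose 2.05-fold. Sfrp2, a secreted decoy for Wnt ligands, fell from 9.06, 8.98 and 9.04 to 7.83, 7.66 and 7.61, a 2.50-fold difference. The other 2 members that fell were Tcf7, by 0.54, and Ccn4, by 0.63. Axin2 and Lef1, common readouts of the pathway, did not pass at 0.16 and 0.11.

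Among Notch genes 6 of 19 rose (31.6%) and 4 fell (21.1%), beside 19.4% and 19.8% of all genes. The median of 0.05 became -0.01 after quantile normalization and -0.08 among members above the median level of all genes. The ligand Jag1 was at 11.59, 11.54 and 11.60 at 6 h and at 13.23, 13.12 and 13.11 at 24 h. It rose 2.98-fold with no overlap (adjusted p = 4.53e-10), and its 12 h mean was already 12.84. Notch3, the main Notch receptor of arterial smooth muscle, rose by 0.59, and the targets Hey1, Hey2 and Heyl by 0.60, 0.52 and 0.42. The other targets that passed fell, Hes1 by 0.57 and Nrarp by 0.89, as did the DNA-binding partner Rbpj, by 0.62.

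Most contractile genes were higher at 24 h. Of 17 measured, 12 rose and none fell (limma), with a median of 0.28 against 0.047 over all genes. At an unadjusted p below 0.05, 2 fell. With each array centred on its median, 10 rose and 2 fell, and 2 also fell with limma without moderation or with a trended prior. Without replicate 1 of the 24 h group 1 fell. Lmod1, leiomodin, was at 10.52, 10.48 and 10.55 at 6 h and 11.31, 11.30 and 11.28 at 24 h, a 1.71-fold rise (adjusted p = 3.86e-08). Myh11, the smooth muscle myosin heavy chain, was at 12.69, 12.70 and 12.72 at 6 h and 13.40, 13.40 and 13.34 at 24 h, a 1.60-fold rise. Both were clearly separated between the groups. Mylk, the kinase that activates myosin, rose 1.53-fold and Tpm2, a tropomyosin, 1.41-fold. Acta2 and Tagln, with the highest signals, rose by 0.10 and 0.12 (adjusted p = 0.0431 and 0.0388), with values of 14.35 to 14.49 for Acta2 beside a highest value of 14.65 in the whole table. All 10 vascular smooth muscle markers, which include Acta2 and Tagln, rose in the main fit. With each array centred on its median 8 of them rose, and after quantile normalization 9. The regulator Myocd did not pass at 0.03.

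The contractile rises came mainly after 12 h. At 12 h against 6 h, 2 of the 17 rose and none fell (3 and none at an unadjusted p below 0.05), and at 24 h against 12 h 10 rose and 1 fell. The 12 h mean of Myh11 was 12.77, not past the threshold against 6 h (adjusted p = 0.26). Untreated cells averaged 12.94 for Myh11 and 10.71 for Lmod1, both below every 24 h array.

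**Figure D3:**
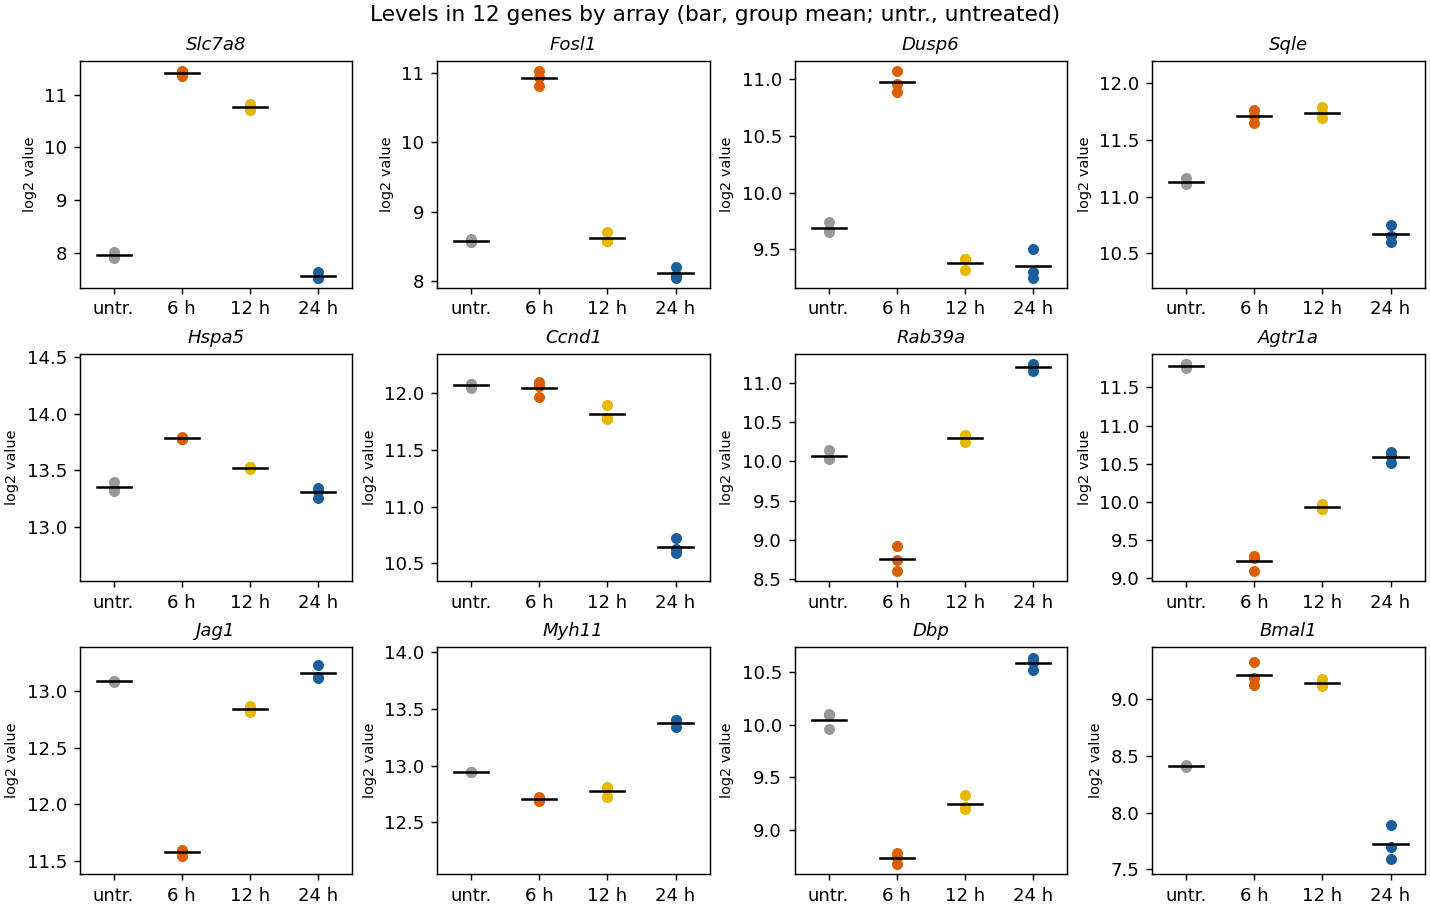
Deposited log2 values of 12 genes on every array of untreated cells and after 6, 12 and 24 h of Ang II, 1 point per array with the group mean as a bar, each panel on its own vertical scale. Dusp6 and Fosl1 are near their 24 h level at 12 h, whereas Sqle, Myh11, Ccnd1 and Bmal1 change mostly between 12 h and 24 h.

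Structural matrix genes changed little. Of 28 measured, 5 rose (17.9%) and 8 fell (28.6%), beside 19.4% and 19.8% of all genes, with a median of -0.03. The number that rose was 3 without replicate 2 or 3 of 6 h or replicate 1 or 3 of 24 h. Has2, which makes hyaluronan, stood out at 7.68, 7.63 and 7.94 at 6 h and 6.16, 6.45 and 6.35 at 24 h, a 2.69-fold fall. Lamc1, a laminin chain, fell by 0.42, and Col1a1, Eln and Dcn by 0.27, 0.21 and 0.34. Col8a1, a collagen of the vessel wall, rose by 0.36. Fn1, Col4a1 and Thbs1 did not pass, at -0.04, -0.03 and -0.03.

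Both plasminogen activators and the urokinase receptor were lower at 24 h. Plau, urokinase, was at 8.74, 8.60 and 8.81 at 6 h and 7.04, 6.90 and 7.03 at 24 h, a 3.30-fold fall. Plat, tissue plasminogen activator, was at 11.78, 11.68 and 11.76 and then 10.46, 10.48 and 10.57, a 2.35-fold fall to a level still above the untreated mean of 8.35. The urokinase receptor gene Plaur fell 2.05-fold. None of these arrays overlapped. Serpine2, protease nexin 1, rose by 0.31. In the list of 27 matrix proteases and inhibitors 8 rose (29.6%) and 6 fell (22.2%), beside 19.4% and 19.8% of all genes. Adamts9, Mmp11 and Adamts15 were higher by 0.65, 0.53 and 0.50, and Adamts1 was lower by 0.61. Mmp2, Mmp14 and Timp1 did not pass, at -0.04, 0.09 and -0.03.

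Osteochondrogenic genes, which smooth muscle can switch on during calcification, were split with 5 of 21 higher (23.8%) and 7 lower (33.3%). The shares of all genes were 19.4% and 19.8%. Without replicate 2 of 6 h, 8 members of the list were higher. Ankh, a pyrophosphate exporter that limits mineral deposition, was at 10.84, 10.85 and 10.78 at 6 h and 9.69, 9.52 and 9.63 at 24 h, a 2.31-fold fall. Runx2, the osteoblast factor, fell 1.48-fold and Mgp, a calcification inhibitor, by 0.32. Ccn2, connective tissue growth factor, rose 1.45-fold.

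The 2 main NADPH oxidases of rat smooth muscle moved in opposite directions. Nox1 was at 7.23, 6.95 and 7.02 at 6 h and 6.12, 5.93 and 5.93 at 24 h, a 2.10-fold fall (adjusted p = 3.93e-07). Nox4 was at 9.78, 9.69 and 9.74 and then at 10.63, 10.52 and 10.60, a rise of 0.85 (adjusted p = 7.8e-08). Neither gene's groups overlapped. Of all 24 redox genes 4 rose (16.7%) and 9 fell (37.5%), beside 19.4% and 19.8% of all genes, with a median of -0.02. Nqo1, a quinone reductase, was at 12.40, 12.50 and 12.48 at 6 h and 11.18, 11.17 and 11.16 at 24 h, a 2.44-fold fall. Slc7a11, Txnrd1, Hmox1, Gclc and Srxn1, which serve glutathione, thioredoxin and heme metabolism, fell by 1.22, 1.09, 0.95, 0.87 and 0.69, and Rac1 by 0.11. Nfe2l2, which encodes the oxidant-sensing factor NRF2, fell by 0.44. Gclm, Prdx1 and Txn1, at -0.13, -0.05 and -0.01, did not pass. The members that rose besides Nox4 were Gpx1, Noxa1 and Cat, by 0.41, 0.28 and 0.12.

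Of 27 genes for calcium handling and ion channels, 9 rose (33.3%) and 6 fell (22.2%), with a median of 0.07. The shares of all genes were 19.4% and 19.8%. Calcium-activated potassium channels of different type moved apart. Kcnn4, the intermediate-conductance channel linked to proliferating smooth muscle, was at 9.43, 9.59 and 9.62 at 6 h and at 7.64, 7.85 and 7.62 at 24 h, a 3.59-fold fall (adjusted p = 2.59e-08). Kcnma1, the large-conductance channel of contractile smooth muscle, was at 6.49, 6.44 and 6.36 and then at 7.30, 7.15 and 7.45, a 1.82-fold rise. In both genes the groups were separate.

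Cacna1c, the pore of the L-type calcium channel, was at 9.38, 9.36 and 9.37 at 6 h and 10.62, 10.51 and 10.48 at 24 h, a 2.25-fold rise. The inositol trisphosphate receptors went both ways, Itpr1 higher by 0.58 and Itpr3 lower by 0.39. The calcium pump gene Atp2b1 fell by 0.96 and Atp2b4 rose by 0.68. The store sensor Stim1 rose by 0.39, while Stim2 and the channel Orai1 fell by 0.43 and 0.44. Trpc6, a receptor-operated channel, fell by 0.84.

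Part of the cell cycle genes were higher at 12 h than at 6 h, and most were lower at 24 h than at 12 h. Of 29 genes of G1/S and DNA replication, 16 fell and 4 rose between 6 h and 24 h, with a median of -0.22. The number that rose was 2 without replicate 2 of 6 h or replicate 1 or 3 of 24 h. At 12 h against 6 h, 16 were higher and 1 lower, with a median of 0.19, and at 24 h against 12 h 25 were lower and none higher, also at an unadjusted p below 0.05, with a median of -0.37 (limma). The untreated arrays had a mean level of 9.00 to 9.04 over the list, beside 8.99 to 9.03 at 12 h. It was 8.77 to 8.85 at 6 h and 8.56 to 8.64 at 24 h. The 12 h level therefore overlapped that of untreated cells. Mcm5, a subunit of the replicative helicase, averaged 9.30, 9.63 and 8.92 at 6, 12 and 24 h. Both of its steps passed (adjusted p = 0.00456 and 2.17e-05). Cdc6, which loads that helicase, was at 8.37, 8.52 and 8.48 at 6 h and 7.91, 7.75 and 7.79 at 24 h, a 1.56-fold fall, and Ccne1, cyclin E1, fell 1.66-fold.

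Mitotic genes had smaller net differences. Of 26 measured, 7 fell (26.9%) and 3 rose (11.5%) between 6 h and 24 h, with a median of -0.09. The shares of all genes were 19.8% and 19.4%. At 12 h against 6 h, 12 were higher and none lower, and at 24 h against 12 h 21 were lower and none higher (limma). At an unadjusted p below 0.05 these were 14 and none, and 22 and none. The mean level of the list was 9.80 to 9.84 on untreated arrays and 9.45 to 9.50 at 12 h. It was 9.23 to 9.35 at 6 h and 9.16 to 9.22 at 24 h, so the 12 h level stayed below that of untreated cells. Top2a, topoisomerase II alpha, averaged 10.10, 10.33 and 10.03, and Ccnb1, cyclin B1, 9.31, 9.50 and 9.21 at 6, 12 and 24 h. Neither differed past the threshold between 6 h and 24 h (adjusted p = 0.384 and 0.213), although both steps did. Kif23, a kinesin of cytokinesis, fell 1.41-fold from 6 h to 24 h.

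Ccnd1, cyclin D1, which links growth signals to the cell cycle, was at 11.97, 12.06 and 12.10 at 6 h and at 10.72, 10.59 and 10.63 at 24 h. The groups did not overlap, with a 2.63-fold fall (adjusted p = 3.98e-09). The 12 h mean was 11.82 and the untreated mean 12.07, so the 24 h level was the lowest of the 4 groups. Ccnd2 and Ccnd3, at -0.07 and 0.00, did not pass. Btg1, an antiproliferative gene, rose 2.04-fold from 12.02, 12.00 and 11.98 to 13.10, 13.01 and 12.99. Rb1, the retinoblastoma gene, rose 1.90-fold and Cdkn1b, which encodes the inhibitor p27, by 0.56. Cdkn2b fell by 0.59 and Cdkn1a by 0.17. Over the 17 D cyclins and inhibitors 7 rose and 6 fell, and the median of 0.03 became -0.01 when each array was centred on its median.

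Genes linked to FoxO factors and starvation rose more often than they fell, 10 against 3 of 22, with a median of 0.17. Sesn3, a stress-induced inhibitor of TORC1, rose 2.29-fold, and Fbxo32, the ubiquitin ligase atrogin 1, 1.87-fold. Pdk4, which slows entry of pyruvate into mitochondria, rose 1.67-fold, and Insr, the insulin receptor, by 0.57. Trib2 fell 1.73-fold. From 6 h to 12 h 10 members were higher and 1 lower, and at 24 h against 12 h 5 were higher and 4 lower.

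Ribosome biogenesis genes were mostly lower. Of 25 measured, 22 fell and 1 rose, with a median of -0.47. Heatr1, a factor of ribosomal RNA transcription and processing, was at 9.06, 8.97 and 9.17 at 6 h and 8.41, 8.23 and 8.23 at 24 h, a 1.71-fold fall (adjusted p = 1.93e-06). Noc3l fell 1.65-fold and Polr1e, a subunit of RNA polymerase I, 1.64-fold. Nop56, Nop58 and Ncl fell by 0.66, 0.65 and 0.44. The exception was Wdr75, at 10.63, 10.65 and 10.58 at 6 h and 11.44, 11.43 and 11.44 at 24 h, a 1.76-fold rise. The falls lay mainly in the first interval, with 21 of 25 lower and 1 higher at 12 h against 6 h and 3 lower and 3 higher at 24 h against 12 h.

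Amino acid supply and ATF4 target genes divided, with 8 of 26 higher (30.8%) and 9 lower (34.6%), beside 19.4% and 19.8% of all genes. Their median was -0.03. By interval, 14 were lower and 1 higher at 12 h against 6 h, and 15 were higher and 3 lower at 24 h against 12 h. Asns, asparagine synthetase, averaged 12.17, 11.89 and 12.20 at 6, 12 and 24 h, with no difference past the threshold between 6 h and 24 h (adjusted p = 0.618). Slc7a5, the carrier LAT1, averaged 12.51, 11.53 and 11.89, a 1.54-fold fall over the whole interval, much less than its relative Slc7a8. Chac1, which breaks down glutathione, rose 1.65-fold and Cth, cystathionase, fell 1.88-fold. Of 20 tRNA synthetase genes 3 rose and 7 fell, and 3 fell without the array with the narrowest spread in each group. Hars1 was the lowest at -0.64 and Farsb the highest at 0.54.

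Cholesterol synthesis genes were mostly lower. Of 20 measured, 18 fell and 1 rose, with a median of -0.48. Sqle, squalene epoxidase, was at 11.65, 11.71 and 11.76 at 6 h and at 10.75, 10.65 and 10.60 at 24 h. Its groups were separate, with a 2.05-fold fall (adjusted p = 2.36e-08). Insig1, which holds the sterol-sensing complex in the endoplasmic reticulum and is itself a sterol-regulated target, was at 13.05, 13.02 and 13.09 and then at 12.08, 12.09 and 12.15, a 1.93-fold fall. Idi1, Dhcr7, Mvd and Stard4 fell by 0.93, 0.91, 0.89 and 0.89, and Fdps, at -0.12, did not pass. Tm7sf2, a sterol reductase, rose by 0.37.

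The timing differed from that of the ribosome genes. In the 12 h arrays 9 cholesterol genes were higher and 1 lower than at 6 h, with a median of 0.12, and at 24 h against 12 h 18 were lower and none higher, also at an unadjusted p below 0.05, with a median of -0.64 (limma). The 12 h means of Sqle (11.74) and Insig1 (13.06) were not past the threshold against 6 h (adjusted p = 0.696 and 0.954). Their 24 h arrays were also below the untreated means of 11.13 and 12.76.

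**Figure D4:**
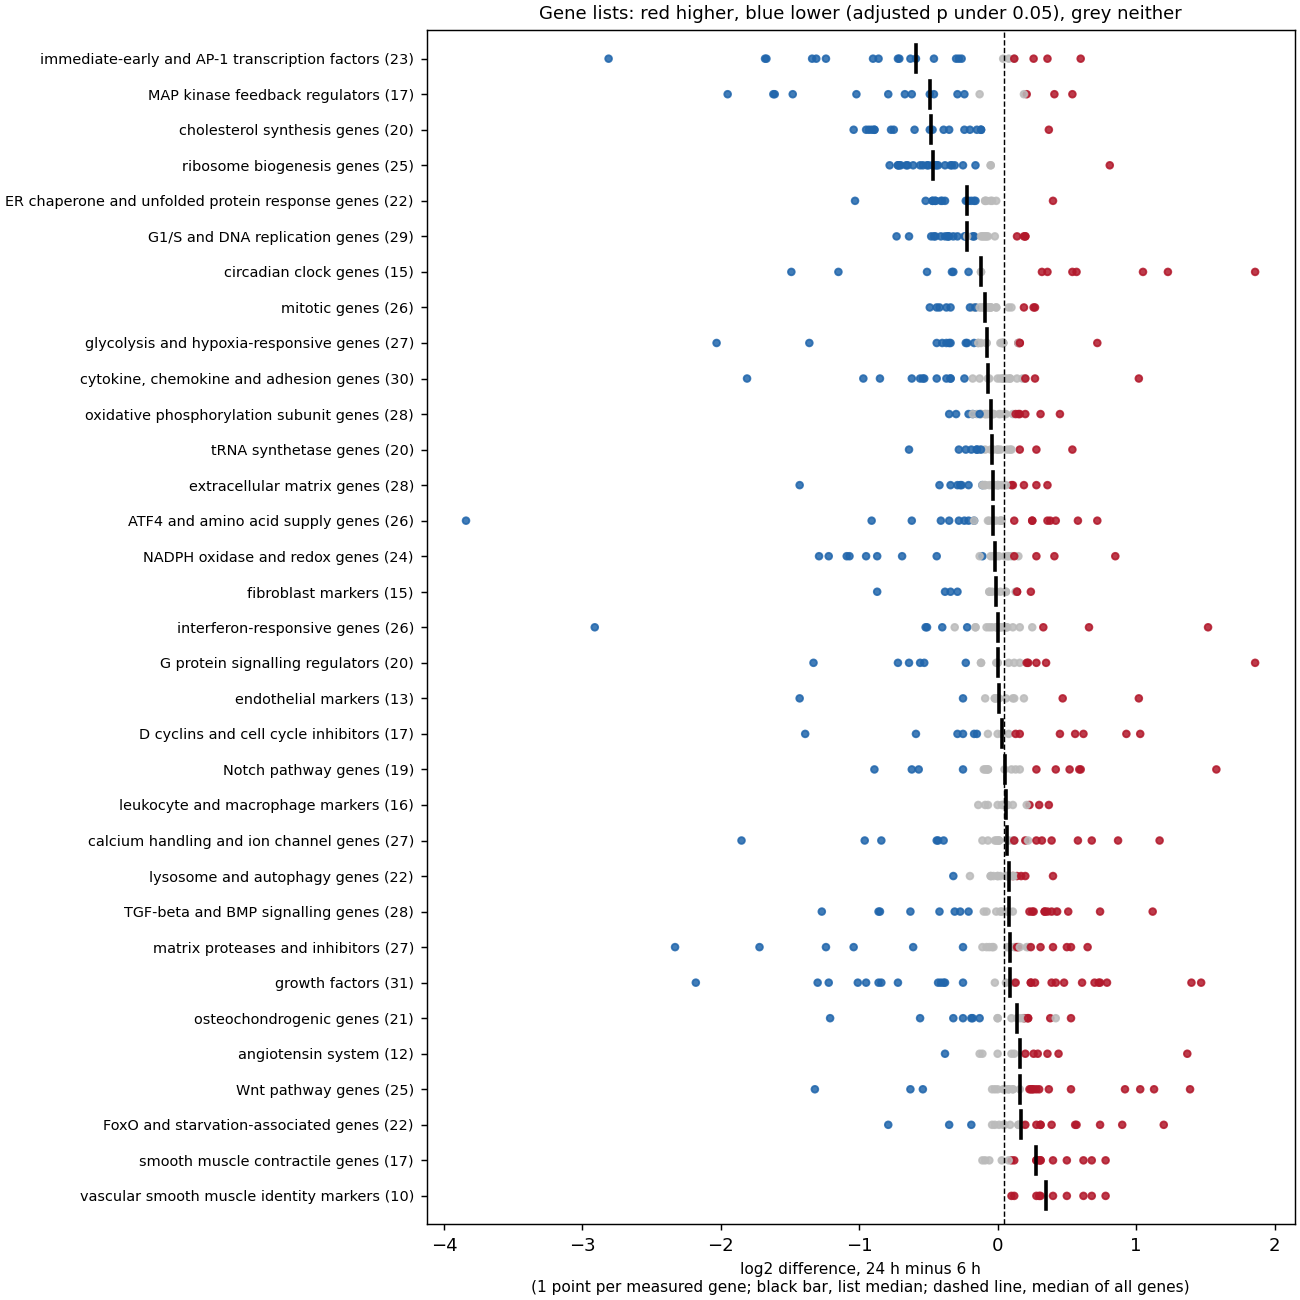
Each point is the log2 difference, 24 h minus 6 h, of 1 measured gene, in rows by gene list with the number of measured genes in brackets. The black bar is the list median, the dashed line the median of all genes (0.047), and genes that passed are red (higher) or blue (lower); immediate-early factors, MAP kinase feedback, cholesterol and ribosome biogenesis have the lowest medians and smooth muscle genes the highest.

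Chaperones and sensors of the endoplasmic reticulum fell by small amounts. Of 22 measured, 15 fell and 1 rose, with a median of -0.22. Creld2, a secreted chaperone induced by endoplasmic reticulum stress, was at 10.47, 10.38 and 10.47 at 6 h and at 9.46, 9.26 and 9.49 at 24 h, a 2.05-fold fall (adjusted p = 7.06e-08). Hspa5, the chaperone BiP, was at 13.78, 13.78 and 13.79 and then at 13.32, 13.26 and 13.34, a 1.39-fold fall with no overlap. Manf and Hyou1 fell by 0.47 and 0.45. Herpud1, a component of the degradation machinery, was at 10.39, 10.22 and 10.40 at 6 h and 10.81, 10.68 and 10.71 at 24 h, the 1 member that rose.

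Many of these genes are known targets of ATF6 and XBP1 through a composite promoter element, so their RefSeq promoters were searched. The windows run from 250 bases before to 50 bases after the annotated start in build GRCr8, and the element was CCAAT followed, after any 9 bases, by CCACG, on either strand. Its first letters are those of the CCAAT box. It was found in 7 of 18 promoters of the list (38.9%) and in 15 of 11951 promoters of all genes (0.126%). The stretches of 4 of these genes are shown because they span the range of differences, with the matched letters in capitals in the direction of transcription. The match to Creld2 lies on the opposite strand.
Hspa5, chr3:38452953-38453011, plus strand: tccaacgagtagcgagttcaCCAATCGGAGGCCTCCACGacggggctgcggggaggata
Creld2, chr7:121789219-121789277, plus strand: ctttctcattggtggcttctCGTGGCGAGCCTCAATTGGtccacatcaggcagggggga
Xbp1, chr14:84604538-84604596, plus strand: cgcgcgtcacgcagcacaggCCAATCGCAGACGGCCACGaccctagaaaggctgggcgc
Canx, chr10:35158049-35158107, minus strand: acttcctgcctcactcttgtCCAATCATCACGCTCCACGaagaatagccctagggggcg

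The 7 genes with the element did not move alike. Creld2 and Hspa5 fell by 1.03 and 0.47, while Dnajc3, Hsp90b1, Xbp1 and Calr fell by 0.23, 0.22, 0.19 and 0.17. Canx, calnexin, was at 13.14, 13.10 and 13.12 at 6 h and 13.12, 13.11 and 13.11 at 24 h, with overlapping arrays (adjusted p = 0.915), although the same letters are in its window. Among the 419 promoters of genes at least 1.5-fold lower, 1 held the element (0.239%). A match describes the letters of these windows and is not evidence of a factor bound there.

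Promoters of the genes with large differences were also searched for the sites of factors described above. The AP-1 letters TGANTCA were in 34 of 419 promoters of genes at least 1.5-fold lower (8.11%), in 17 of 350 of those higher (4.86%) and in 6.23% of all 11951. The EGR letters GCGGGGGCG were in 28 of the lower (6.68%), 14 of the higher (4.00%) and 4.13% of all. Sites of other factors also differed between the sets, so the pattern is not particular to AP-1 and EGR. The E-box letters CACGTG were in 10.7% of the lower, 7.43% of the higher and 7.88% of all. The letters GGAATG, a site of TEAD factors, were in 12.2%, 15.1% and 12.0%. These shares were not tested and leave most promoters of either set without a match.

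Genes of glycolysis and the response to hypoxia, taken as 1 list, were mixed, with 4 of 27 higher (14.8%) and 10 lower (37.0%). The shares of all genes were 19.4% and 19.8%, and the list median was -0.08. The first enzymes of glycolysis carried the largest differences. Hk2, the inducible hexokinase, was at 9.88, 9.85 and 10.07 at 6 h and at 7.99, 7.83 and 7.88 at 24 h, a 4.09-fold fall (adjusted p = 1.13e-09), with a 12 h mean of 8.25. Phosphofructokinase isoforms moved apart, Pfkp lower 2.57-fold from 9.48, 9.43 and 9.52 to 8.23, 7.98 and 8.14, and Pfkm higher 1.64-fold. The glucose carrier Slc2a1 fell by 0.44. Gapdh, Pgk1, Eno1 and Pkm, lower in the pathway, did not pass at 0.03, 0.04, 0.04 and 0.03.

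Among 28 subunits of oxidative phosphorylation 6 rose and 5 fell, a share near the 39.2% of all genes that passed, with a median of -0.05. Genes of higher level passed more often, and this list's mean level was 10.71 to 10.76 at 6 h. The number that fell was 1 without replicate 1 of 6 h or replicate 3 of 24 h. It was 3 without replicate 3 of 6 h or replicate 2 of 24 h. Ndufv2, of complex I, rose 1.37-fold and Sdhc, of complex II, 1.24-fold. Ndufa10 fell 1.27-fold, while the groups of Uqcrfs1 overlapped. Of 22 lysosome and autophagy genes 5 rose (22.7%) and 1 fell (4.55%), beside 19.4% and 19.8% of all genes. The number higher ran from 2 with each array centred on its median to 10 after quantile normalization. It was 2 without replicate 2 of 6 h or replicate 1 of 24 h, and 3 without replicate 1 of 6 h or replicate 2 or 3 of 24 h. Without replicate 2 of 6 h or replicate 3 of 24 h, 2 rather than 1 fell. Mcoln1, a lysosomal calcium channel, rose 1.32-fold, and Npc1, which exports cholesterol from lysosomes, fell 1.25-fold.

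Circadian clock genes differed in both directions. In the clock's feedback loop BMAL1 with CLOCK drives the Per, Cry, Nr1d and Dbp genes. Products of the Per, Cry and Nr1d genes feed back on the loop. Of 15 measured, 7 rose and 6 fell, with a median of -0.12. Bmal1 was at 9.13, 9.19 and 9.33 at 6 h and at 7.89, 7.59 and 7.70 at 24 h, a 2.80-fold fall (adjusted p = 2.09e-08). Dbp, a direct output of the loop, was at 8.73, 8.68 and 8.78 and then at 10.60, 10.52 and 10.64, a 3.62-fold rise (adjusted p = 7.11e-10). Both genes were separate between the groups, in opposite directions.

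Per3 rose 2.34-fold, from 8.29, 8.19 and 8.24 to 9.49, 9.52 and 9.40. Nr1d2, which represses Bmal1, rose by 1.05, Tef by 0.57, Per2 by 0.54 and Nr1d1 by 0.32. Bhlhe40 fell 2.22-fold, while its relative Bhlhe41 rose by 0.36, and Cry2 fell by 0.51. Between 6 h and 12 h 3 members were higher and 7 lower, and at 24 h against 12 h 8 were higher and 3 lower. The 12 h means of Bmal1 (9.14) and Nr1d2 (8.61) were not past the threshold against 6 h (adjusted p = 0.529 and 0.41), and Per2 was lower at 12 h (8.54) than at either other time. With 3 times and no untreated series, the data do not give the phase of a rhythm.

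The E-box CACGTG, to which BMAL1 with CLOCK binds, was in 3 of 14 promoters of the clock list (21.4%) and in 942 of 11951 overall (7.88%). Other lists had higher shares, 31.6% for FoxO-associated genes, 27.8% each for tRNA synthetase and lysosome genes and 22.7% for ribosome biogenesis, so the share does not set the clock genes apart. The 3 stretches are shown with the E-box in capitals because their genes moved in both directions, Tef and Bhlhe41 higher and Bhlhe40 lower.
Tef, chr7:115206609-115206654, plus strand: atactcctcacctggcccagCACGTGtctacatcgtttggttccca
Bhlhe40, chr4:143174210-143174255, plus strand: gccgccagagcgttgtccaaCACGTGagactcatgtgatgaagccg
Bhlhe41, chr4:180569378-180569423, minus strand: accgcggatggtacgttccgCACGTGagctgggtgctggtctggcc

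Markers of cell types other than smooth muscle were checked in the same way. Of 13 endothelial markers 2 rose and 2 fell (15.4% each, beside 19.4% and 19.8% of all genes). The number that fell was 1 when any array but replicate 3 of 6 h was left out. Their median of 0.01 became -0.05 after quantile normalization and -0.03 with centring, and was -0.20 among members above the median level of all genes. Among the defining genes, Pecam1, Cdh5, Tie1 and Kdr, at 0.01, -0.02, -0.01 and 0.06, did not pass. Tek, also a defining gene, passed, though not in every alternative run. Flt1, the VEGF receptor 1, was at 10.79, 10.93 and 10.98 at 6 h and 9.48, 9.45 and 9.49 at 24 h, a 2.69-fold fall, and untreated cells averaged 8.41. Erg, an ETS factor, rose 2.03-fold from 8.09, 8.04 and 7.92 to 9.12, 8.93 and 9.06. Both genes were separate between the groups while the list's mean level overlapped.

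Of 16 leukocyte markers 3 rose (18.8%, beside 19.4% of all genes), and 1 rose without replicate 2 of 24 h. The 3 were Cd3e, Cd4 and Cd79b, higher by 0.37, 0.30 and 0.23, all at low signal. Ptprc and Cd68, at 0.07 and 0.11, did not pass. Of 15 fibroblast markers 4 fell and 3 rose, beside 19.8% and 19.4% of all genes. With each array centred on its median 4 fell and 1 rose. Their median of -0.01 became 0.03 without replicate 3 of 6 h and 0.01 without replicate 1 or 2 of 24 h. It was 0.02 without the array with the narrowest spread in each group, -0.05 with centring and -0.04 after quantile normalization. Col14a1 was at 11.53, 11.57 and 11.57 at 6 h and 10.71, 10.67 and 10.68 at 24 h, a 1.83-fold fall, and Dcn, Lum and Fap fell by 0.34, 0.29 and 0.38. Pdgfra, Thy1 and Gsn rose by 0.24, 0.14 and 0.14. The share of these cells in the cultures, and its part in the matrix and contractile differences, was not tested.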

How the data were processed

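Expression was measured on 12 arrays in 4 groups of 3, taken from the titles. The values are log2 signals per probe set, made by the authors with RMA in Partek, per the submitters' processing notes; the sources used here give no versions or background settings. RMA makes the arrays' distributions similar, so a shift common to all genes would not be seen. Of 29214 probe sets, 15310 had 1 gene symbol, 323 had several and 13581 are unnamed here. Where a gene had several probe sets, the one brightest on average over the 12 arrays was kept, which left 14506 genes, 527 of them with more than 1 probe set. Symbols were updated through RefSeq GRCr8 (14481 by gene identifier, 1 by accession, 24 kept as annotated). The number of arrays limits the precision, and the median SE was 0.0667.

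A 4-group linear model over all 12 arrays was fitted with limma 3.58.1 in R 4.3.3 (lmFit, eBayes) with Benjamini-Hochberg adjustment over all genes. Untreated and 12 h arrays entered the spread. Differences are log2, 24 h minus 6 h, with standard errors and 3 arrays per group. Genes passed at an adjusted p below 0.05. On simulated data the same steps recovered 58% of genes changed 1.25-fold, 90% at 1.5-fold and 100% at 2-fold. That simulation changed far fewer genes than passed in the data and drew normal noise independently for each gene. Its rates check the steps and do not give the sensitivity of the comparison.

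Named genes were the 15 largest rises and falls that passed with arrays not overlapping, up to 4 members per list and the angiotensin receptors. Other list members were named after their values were seen, as were the list counts at 12 h. The 33 gene lists hold 799 entries, of which 728 (714 distinct genes) were measured. Members and lists were chosen with earlier results of these data known. Lists are described by counts and medians. Alternatives covered the arrays in the fit, a replicate block, each array left out, scaling, low signal, moderation, array weights and the choice of probe set. Tables and figures were made in Python 3.11.15 with pandas 2.3.3 and matplotlib 3.10.9.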

Additional observations from a re-analysis of the deposited data

How the results depend on the processing

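The numbers of genes that rose and fell, 2813 and 2875, were 2473 and 2586 on the 6 arrays alone, and leaving out 1 array of either group gave 2322 to 2838 and 2474 to 2955. At least 1.5-fold, the counts without 1 array were 393 to 452 and 477 to 587. Centring each array on its median gave 2100 higher and 3182 lower, so the share of higher genes among calls went from 49.5% to 39.8%. Testing all 29214 probe sets gave 650 and 805 at least 1.5-fold, and testing against a minimum of 1.5-fold left 177 and 235. An alternative chosen after seeing the data, without the array of narrowest spread at 6 h and at 24 h, gave 2470 and 2431. Replicate numbers are shared in the labels, and the main fit did not pair arrays by them. Deviations of same-numbered arrays at 6 h and 24 h correlated at 0.07, 0.299 and 0.099, and those of different-numbered arrays at -0.207 to 0.121. Over all groups same-numbered arrays ran from -0.103 to 0.299 and different-numbered arrays from -0.28 to 0.257. These values do not settle whether the numbers pair the arrays. With the replicate number as a block, 2852 genes rose and 2829 fell, and no named gene changed its call. Single genes were followed through the alternatives only where named by rule, so Acta2 and Tagln, among others, are not covered. Of the 152 genes named by rule 150 passed. Of those that passed, none changed direction in the 17 alternatives run, 1 of which (genes above the median level) held 125 of the named genes, and 7 (Uqcrfs1, Wipi1, Tek, Cd3e, Cd79b, Ndufa10 and Tnfsf11) missed the threshold in at least 1.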
